A study of Mus musculus with 16 samples.

Results

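FB1 is a subcluster of the fibroblasts (FB) of the mouse left ventricle, as named in the authors' cell annotation, and its members are the cells that carry this label. It held 171 of the 1775 annotated fibroblasts and of the 11492 cells in all. The other 9 FB subclusters held 345 (FB2), 313 (FB3), 376 (FB4), 83 (FB5), 156 (FB6), 133 (FB7), 76 (FB8), 48 (FB9) and 74 (FB10) cells. The study followed pressure overload of the heart, made by surgical narrowing of the aorta (TAC), in 16 male mice. Stage 0w had 2 mice, stage 2w had 2, stage 5w had 7, stage 8w had 3 and stage 11w had 2. The labels name these stages in weeks and do not say whether 0w mice had surgery or give strain or age. No allele, transgene or drug is named for any mouse. In the comparisons by stage, 8w and 11w are called late and 0w and 2w early.

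Fibroblasts of the heart make and remodel the collagen-rich matrix between the muscle cells. Resting cardiac fibroblasts carry the receptor Pdgfra and the proteoglycan decorin (Dcn), and pressure load is known to turn some of them into matrix-producing cells that express periostin (Postn). Endothelial cells (EC) line the vessels and carry a separate program, with the VEGF receptor Kdr, the junction protein Pecam1 and the fatty acid binding protein Fabp4.

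FB1 cells were found in 10 of the 16 mice. The 0w mice gave 36 and 34 of them, the 2w mice 9 and 11, the first 3 of the 5w mice 28, 1 and 1, the first 8w mouse 29, and the 11w mice 13 and 9. In the other 4 mice at 5w and the other 2 at 8w there were 0. Mice with at least 10 FB1 cells gave 6 sums, from 0w replicate 1, 0w replicate 2, 2w replicate 2, 5w replicate 1, 8w replicate 1 and 11w replicate 1, and values listed without names below follow this order. An FB1 sum held between 182931 and 2866051 UMIs (unique molecular identifiers, that is counted molecules) of nuclear-encoded genes, and the sums of the other FB of these mice held between 3061640 and 12869172. Levels are CPM, UMIs scaled to the same nuclear-encoded total in every sum, and log2 ratios were taken within a mouse after adding 1 CPM. The authors' clustering used the genes of these cells, so FB1 is set against the other FB as a description, with no test.

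FB1 cells carried the fibroblast markers and, beside them, endothelial transcripts. The summed level of 8 fibroblast markers (Pdgfra, Col1a1, Dcn, Col1a2, Lum, Gsn, Tcf21 and Pdgfrb) was 27000, 26400, 22700, 22800, 26300 and 11000 CPM in FB1. In the other FB it was 28300, 25100, 24400, 32000, 33800 and 26400 CPM. FB1 thus lay closer to the other fibroblasts in each of these 6 mice but 11w replicate 1, where the sum was lower by more than in any other. On plate L alone, FB1 of that mouse held 16800 CPM and the other FB 28500 CPM. Its remaining 3 FB1 cells lay on plate K, so the fall from 16800 to 11000 CPM came with them. Of the mice without a sum, 2w replicate 1 held 16200 CPM in FB1 and 30700 CPM in the other FB on plate D. In 11w replicate 2 on plate L the values were 28200 and 24000 CPM. EC of the same mice held 2150 to 4180 CPM of these markers, below every FB1 value. Dcn and Gsn gave most of the sum (13600 and 9110 CPM in FB1 pooled over the 6 mice), so it says little of the other markers. Pooled Tcf21 stood at 84.2 CPM in FB1, 134 in the other FB and 11.5 in EC. Pooled Lum stood at 841, 1190 and 88.4 CPM. Of the 7 markers that passed the level filter used below, 0 had a mean log2 ratio to the other FB above 0 (median -0.45).

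The 6 endothelial markers Pecam1, Cdh5, Kdr, Fabp4, Tie1 and Vwf summed to 2440, 2710, 5860, 3700, 3950 and 5420 CPM in FB1. In the other FB they summed to 820, 577, 375, 293, 618 and 388 CPM. EC held 7940, 8460, 11200, 7430, 9910 and 5680 CPM. In these sums FB1 lay above the other FB and below EC in all 6 mice. The 3 ranges did not overlap, except that the highest FB1 value passed the lowest EC value. On plate L alone, FB1 of 11w replicate 1 lay above EC, with 6300 and 5680 CPM. On plates B, D and E, and in 11w replicate 2 on plate L, FB1 lay below EC. Macrophages (up to 1920 CPM) and T cells (up to 1550 CPM) lay below every FB1 value, and how much of their values was background was not tested.

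**Figure D1:**
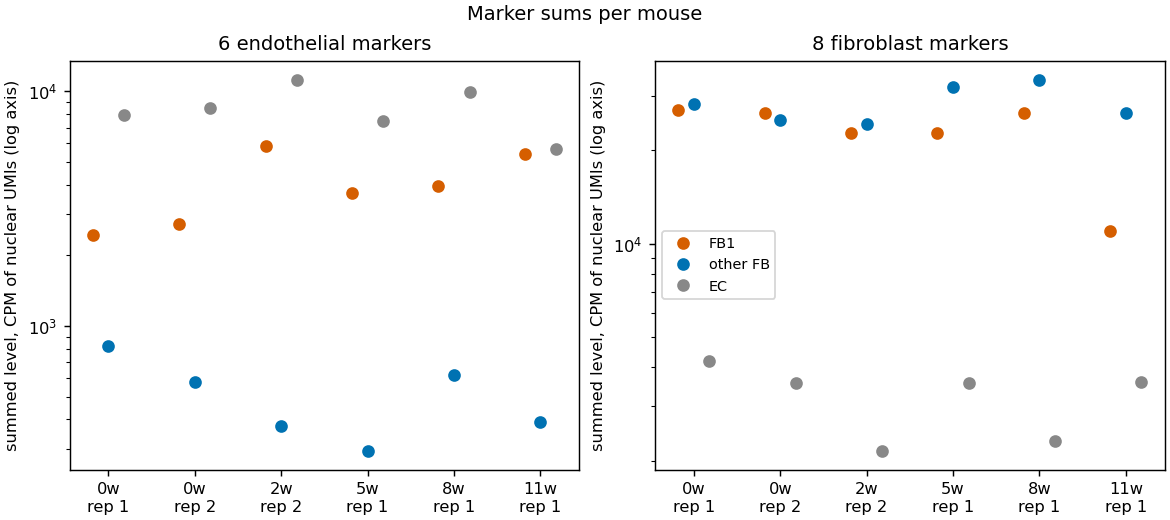
Summed level of 6 endothelial markers (left) and of 8 fibroblast markers (right) in CPM on log axes, for FB1, other FB and EC, with 1 point per mouse and cell group and the 6 mice along the x axis by stage. In the left panel FB1 lies between other FB (293 to 820 CPM) and EC (5680 to 11200 CPM), and in the right panel it lies near other FB except in 11w replicate 1.

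Mural cell markers (6 genes such as the pericyte gene Rgs5) were higher in FB1 in 5 of 6 mice. They summed to 707, 684, 134, 71.6, 498 and 897 CPM in FB1, against 309, 138, 16.7, 191, 403 and 111 CPM in the other FB, with a median of 723 CPM in EC. Mural transcripts thus moved with the endothelial ones in all mice but 5w replicate 1, and their part in the result was not tested. Cardiomyocyte markers (6 genes) summed to 958 to 3600 CPM in FB1 and 2100 to 5450 CPM in the other FB. Macrophage markers (5 measured genes) summed to 101 to 473 CPM in FB1 and 126 to 481 CPM in the other FB. Epicardial markers (4 genes) summed to 0 to 63.6 CPM in FB1 and 33.1 to 275 CPM in the other FB. T cell (4 genes), B cell (3 genes), granulocyte (3 genes), endocardial (3 genes) and Schwann cell (4 genes) markers each stayed at or below 115 CPM in every FB1 sum, with 1 T cell, 1 endocardial and 1 Schwann marker at 0. Myofibroblast markers (7 genes, 1 of them at 0) ranged from 44.7 to 1440 CPM in FB1 and from 133 to 2170 CPM in the other FB. Hemoglobin genes ranged from 3700 to 24500 CPM in FB1 and from 6630 to 34500 CPM in the other FB.

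Of the 3268 nuclear genes whose mean log2 CPM reached 5, 49 (1.5%) were higher in FB1 than in the other FB by at least 1 on the log2 scale and in all 6 mice. Another 86 (2.63%) were lower by at least 1 and in all 6 mice. The median log2 ratio of all 3268 genes was -0.32, so the values below lie around that point and not around 0. Of the 49 higher genes, 46 (93.9%) were also at least 1 higher, on the log2 scale, in EC than in the other FB, against 6.95% of the measured genes. Both ratios used the same sums of the other FB, so a low value there raised both. The share over the measured genes is therefore no independent baseline.

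The 12 named genes with the highest log2 ratio were Thrsp (3.92), Rbp7 (3.87), Tcf15 (3.71), Gpihbp1 (3.67), Kdr (3.66), Esam (3.53), Cav1 (3.37), Pecam1 (3.34), Ctla2a (3.27), Eltd1 (3.10), Flt1 (2.99) and Tspan13 (2.94). Each was higher in FB1 in all 6 mice. Gpihbp1 is the capillary anchor of lipoprotein lipase, Esam is an endothelial adhesion molecule, Cav1 forms caveolae, and Flt1 is a VEGF receptor like Kdr. Rbp7 encodes a retinoid binding protein, and Tcf15 a transcription factor known in capillary endothelium of the heart.

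Kdr stood at 431, 416, 422, 219, 335 and 312 CPM in FB1, against 17.3, 48.7, 56.1, 12.4, 12 and 47.4 CPM in the other FB. The groups did not overlap, and the mean in EC was 558 ± 220 CPM (SD, n = 6 mice). Gpihbp1 stood at 1150, 558, 1080, 611, 985 and 700 CPM in FB1, against 100, 98.6, 37.3, 19.1, 133 and 64.3 CPM in the other FB. Every FB1 value lay above every value of the other FB, and EC averaged 2350 ± 1200 CPM (SD, n = 6). Fabp4 was the most abundant of the endothelial markers in FB1, with 1800, 1890, 4360, 3040, 2880 and 3300 CPM, against 599, 474, 304, 230, 476 and 226 CPM in the other FB. Its log2 ratio was 2.93 ± 1.01 (SD, n = 6).

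Pecam1 varied more, with 54.8, 142, 299, 59.6, 210 and 437 CPM in FB1, against 35.2, 8.82, 2.72, 16.1, 22.9 and 22.2 CPM in the other FB. The smallest difference was in 0w replicate 1. Cdh5, the cadherin of endothelial junctions, was lower in FB1 in that mouse (43.3 CPM in FB1, 155 CPM in the other FB) and higher in the other 5, up to 1320 CPM in FB1 and 52.6 CPM in the other FB of 11w replicate 1. Vwf, the clotting factor that marks larger vessels more than capillaries, was not high in FB1: it averaged 24.3 CPM in FB1, 8.50 CPM in the other FB and 393 CPM in EC, was higher in FB1 in 3 of 6 mice, and 1 cell gave 69.1% of its FB1 UMIs.

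**Figure D2:**
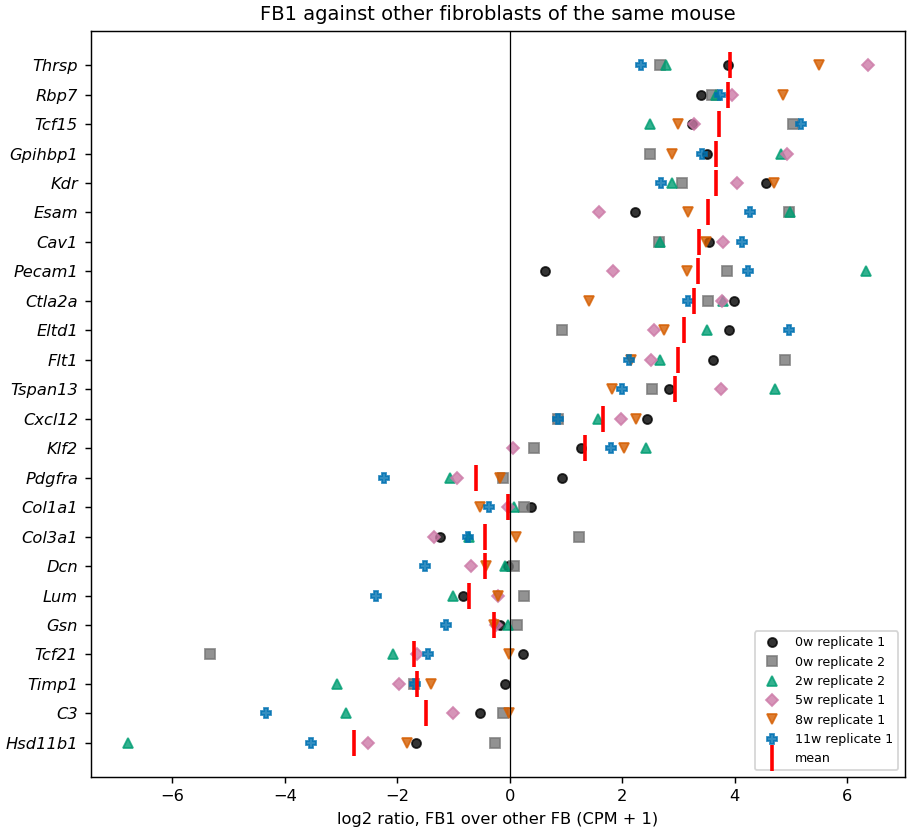
Log2 ratio of FB1 over the other FB of the same mouse for 24 genes, with 1 symbol per mouse and a red bar at the mean of 6 mice. All points of the 12 highest genes and of Cxcl12 and Klf2 lie right of 0. The fibroblast genes Col1a1, Gsn and Dcn have means from -0.04 to -0.45. The mean of Pdgfra was lower, at -0.60, and 0 of the 7 measured fibroblast markers had a mean above 0.

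The proximal promoters of these genes are shown because their transcripts were higher together in FB1. RefSeq promoters were matched for 7 of the 12 highest genes, and 3 of these held the hexamer AGGAAG, a core of sites for ETS transcription factors, which act widely in endothelial genes. The 250 bases before the start are printed on the gene's own strand, with the hexamer in capitals (its reverse complement, CTTCCT, was also searched).
Thrsp (GRCm38.p6, chr7:97417551-97417800, minus strand): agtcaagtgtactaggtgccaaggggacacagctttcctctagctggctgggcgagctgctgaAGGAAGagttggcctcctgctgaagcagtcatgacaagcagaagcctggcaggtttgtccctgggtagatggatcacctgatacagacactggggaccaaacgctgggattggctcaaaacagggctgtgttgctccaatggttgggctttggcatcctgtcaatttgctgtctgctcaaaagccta
Rbp7 (GRCm38.p6, chr4:149454969-149455218, minus strand): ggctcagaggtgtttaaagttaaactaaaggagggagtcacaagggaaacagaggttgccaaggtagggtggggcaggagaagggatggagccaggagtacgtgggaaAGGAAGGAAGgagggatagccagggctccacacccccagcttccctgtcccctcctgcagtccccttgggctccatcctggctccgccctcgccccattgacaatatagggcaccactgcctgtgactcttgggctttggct
Flt1 (GRCm38.p6, chr5:147726012-147726261, minus strand): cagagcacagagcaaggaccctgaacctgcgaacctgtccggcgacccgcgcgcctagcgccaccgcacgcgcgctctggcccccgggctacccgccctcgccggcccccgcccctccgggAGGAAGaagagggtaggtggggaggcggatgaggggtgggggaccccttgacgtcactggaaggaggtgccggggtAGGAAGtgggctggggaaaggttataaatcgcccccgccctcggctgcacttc
Flt1 and Rbp7 each held the hexamer 2 times in this window, the copies in Rbp7 overlapping by 2 bases, and Thrsp held it once. On either strand it lay in 29.2% of all 27025 promoters, in 28 of 66 (42.4%) of the EC-high genes defined below and in 20 of 55 (36.4%) of the FB-high genes. A match is a description of these letters and says nothing of a bound factor.

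To see how far the endothelial content went beyond single markers, genes were split by EC against the other FB, with FB1 left out. EC-high genes (102) held at least 100 CPM in EC and at least 8 times the level of the other FB, and FB-high genes (88) the reverse. The rule used EC and the other FB of these 6 mice, so the distance between those 2 groups was set by it. Only the place of FB1 was left free. EC-high genes took 1.64%, 1.71%, 2.42%, 2.06%, 1.93% and 2.37% of the UMIs of FB1. They took 0.240% to 0.337% in the other FB and 3.72% to 5.90% in EC, so the FB1 range overlapped neither. In T cells they took 0.504% to 2.01%, which overlapped the FB1 range, although T cells lay below FB1 within each of the 6 mice. In macrophages they took 0.443% to 1.33%. Pooled over the 6 mice, the level in FB1 was a median 0.390 of that in EC (quartiles 0.254 and 0.513), with 89 of the 102 genes above 0.2 and 2 above 1. FB-high genes took 5.24%, 5.72%, 5.00%, 7.57%, 5.98% and 2.71% of the UMIs of FB1, against 6.25% to 8.86% in the other FB and 0.360% to 0.973% in EC. Their pooled level in FB1 was a median 0.767 of that in the other FB (quartiles 0.639 and 0.944). By these pooled values FB1 held most of the fibroblast level and less than the full endothelial level of these genes. Pooling weighs mice by their UMIs, and most FB1 UMIs came from 5w replicate 1 (2515052) and 8w replicate 1 (2866051). In 11w replicate 1 FB1 did not hold most of the fibroblast level, at 2.71% against 6.42% in the other FB.

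FB1 also held more of the EC-high genes than each other FB subcluster. The rule for these genes used the pooled other subclusters, so their low values were in part set by it. EC-high genes took 0.152% to 0.264% of the UMIs of FB2 and 0.193% to 0.426% of those of FB4 in the same mice (5 of them with at least 10 FB4 cells). Over all cells, the median cell of FB1 gave 1.74% to EC-high genes, while the medians of the other 9 subclusters lay between 0.134% (FB2) and 0.719% (FB10). FB-high genes took a median 5.17% in FB1 cells. The medians of FB4 (7.70%), FB5 (7.17%), FB2 (6.99%) and FB3 (6.81%) lay above this, and those of FB6 (4.84%), FB10 (4.08%), FB8 (3.64%), FB9 (3.33%) and FB7 (1.29%) below it. Kdr had a log2 ratio of 5.20 against FB2 and of 4.49 against FB4, and Dcn of -0.44 and -0.87.

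Single cells held both sets of transcripts. In the 151 FB1 cells of the 6 mice, EC-high genes took a median 1.63% of UMIs (quartiles 1.01% and 2.48%) and FB-high genes 5.26%. In the 882 other FB cells the medians were 0.212% and 6.84%, and in the 1403 EC they were 4.45% and 0.418%. The lowest 5% of FB1 cells held up to 0.322% of EC-high UMIs, inside the range of the other FB, so the endothelial content of FB1 cells varied and was low in some.

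**Figure D3:**
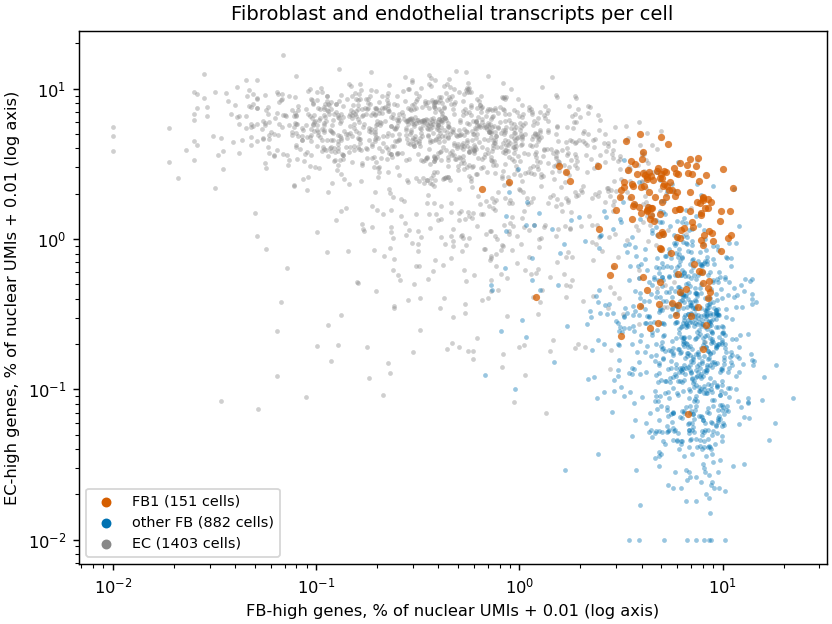
Percent of a cell's nuclear UMIs from EC-high genes against that from FB-high genes, both plus 0.01 and on log axes, with 1 point per cell of the 6 mice. FB1 cells sit at the right with the other FB but mostly higher, at a median of 1.63% for EC-high genes against 0.212% in other FB and 4.45% in EC.

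To compare cells at equal depth, each cell was thinned to 2000 nuclear UMIs. A thinned cell held UMIs of at least 2 of the fibroblast and at least 2 of the endothelial markers in 64 of 148 FB1 cells (43.2%, exact 95% interval 35.1% to 51.6%). The share was 6.04% in the other FB, 26.8% in EC, 4.83% in macrophages and 4.34% in T cells. By mouse it was 25.7%, 32.4%, 90.9%, 46.4%, 48.3% and 63.6% in FB1 and 3.45% to 8.33% in the other FB. Before thinning, Kdr and Pdgfra were both detected in 45 of 151 FB1 cells (29.8%, exact 95% interval 22.6% to 37.8%). They were both detected in 7.71% of the other FB, 7.13% of EC and 0.905% of T cells, whose median depths were 22200, 17700 and 15600 UMIs against 34600 in these FB1 cells. After thinning the shares were 4.73%, 0.473%, 1.23% and 0%, the last of 438 T cells, which allows a share of up to 0.685% (3 counts of the total). Other pairs separated the groups less. Pecam1 and Col1a1 were both detected in 4.05% of thinned FB1 cells (exact 95% interval 1.5% to 8.61%). That share was 0.947% in the other FB, 3.11% in EC and 0.228% in T cells. Fabp4 and Dcn were both detected in 79.7% of thinned FB1 cells, 25.7% of the other FB, 44.0% of EC and 17.4% of T cells. Intervals and limits here cover counting error only.

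The depth of FB1 cells differed from that of the other FB. The median cell had 32880 nuclear UMIs in FB1, 17100 in the other FB and 17110 in EC over all mice. By mouse, the FB1 and other FB medians were 31790 and 33740 UMIs in 0w replicate 1, 34560 and 30380 in 0w replicate 2, 13680 and 19270 in 2w replicate 2, 68960 and 46360 in 5w replicate 1, 59210 and 47770 in 8w replicate 1, and 8201 and 6680 in 11w replicate 1. FB1 was thus deeper than the other FB in 4 of these 6 mice and shallower in 2, and the share of thinned cells with both marker sets was highest in the mice where FB1 was shallowest (90.9% in 2w replicate 2 and 63.6% in 11w replicate 1). FB4 cells were about as deep, with a median of 34000 UMIs over all mice, and gave a median 0.209% to EC-high genes. Leaving out the 5% deepest FB1 cells of each mouse changed the Kdr log2 ratio to 3.56. Doublets were not called, and the part of cells captured together in this pattern was not tested. FB1 cells lay on 6 of the 12 plates, with 70 on plate B, 20 on D, 57 on E, 2 on F, 6 on K and 16 on L. Those plates held 708, 350, 316, 18, 130 and 215 EC. The 6 plates without FB1 held 12 to 35 EC each. Plate I, with 105 FB and 29 EC, held 0 FB1 cells.

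Within single plates the difference kept its direction. On plate B, FB1 cells gave 1.64% and 1.71% of UMIs to EC-high genes, against 0.314% and 0.299% in the other FB of the 2 mice at 0w. On plate D the values were 2.56% and 2.42% in FB1 and 0.239% and 0.244% in the other FB of the 2 mice at 2w. On plate E they were 2.06% in FB1 and 0.246% in the other FB of 5w replicate 1, and 1.93% and 0.326% in 8w replicate 1. On plate L they were 2.93% and 0.365% in 11w replicate 1 and 2.72% and 0.403% in 11w replicate 2. FB1 was the higher in 8 of 8 pairs, which include 2 mice that gave no sum because they held fewer than 10 FB1 cells. The rule for EC-high genes used the other FB of the mice with sums, so only the pairs of those 2 mice stood outside it. Their cells too got the FB1 label from a clustering on their genes, so no pair is an independent test.

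Matrix genes had list medians from -0.61 to -0.03, around the median of all measured genes (-0.32), and no member passed the rule above except Timp1, given below. Of all measured genes only 1.5% passed as higher and 2.63% as lower. A short list would thus hold few or none in any case, and a count of 0 says little of it. Of the 7 fibrillar collagen genes 6 were measured, 0 were higher and 0 lower in FB1 by the rule above, and their median log2 ratio was -0.25. Col1a1, the main chain of type I collagen, stood at 368, 433, 443, 267, 141 and 301 CPM in FB1, against 282, 362, 419, 273, 205 and 388 CPM in the other FB. FB1 was the higher in 3 of 6 mice and the groups overlapped. Small leucine-rich proteoglycans (7 measured of 11) had a median of -0.61, with 0 higher and 0 lower. Dcn stood at 17400, 15300, 12400, 10900, 14000 and 5430 CPM in FB1, against 17800, 14600, 13200, 17600, 18800 and 15500 CPM in the other FB, with its lowest FB1 value in 11w replicate 1. Collagen processing enzymes (13 measured of 21, median -0.59), elastic fibre genes (10 of 16, -0.29), matricellular proteins (12 of 26, -0.03) and basement membrane collagens (8 of 17, -0.55) likewise held 0 higher and 0 lower genes.

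Of 20 genes of the resting fibroblast state, all measured, 1 was higher and 3 were lower in FB1, with a median of -0.60. Cxcl12, a chemokine that EC also express (967 CPM on average there), was the higher one, with 272, 115, 395, 487, 1120 and 104 CPM in FB1, against 49.1, 63.1, 133, 123, 237 and 56.8 CPM in the other FB. It was higher in all 6 mice, and the ranges over all mice overlapped. The lower ones were Hsd11b1, Scara5 and C3. Hsd11b1, the enzyme that regenerates active glucocorticoid, was among the 12 lowest genes, with 376, 258, 0, 75.9, 108 and 16.4 CPM in FB1, against 1190, 311, 110, 441, 384 and 201 CPM in the other FB. Its log2 ratio was -2.77 ± 2.25 (SD, n = 6). Tcf21, a transcription factor of cardiac fibroblasts, was lower in 5 of 6 mice at -1.71 ± 2.00, and Pdgfra was lower in 5 of 6 at -0.60 ± 1.07.

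The remaining lists also held few genes that passed, which says little for lists this short. Complement genes (6 measured of 13) had a median of -0.80, with C3 lower at -1.49 ± 1.75 (SD, n = 6). Universal fibroblast genes of the Pi16 type (7 of 15) had a median of -0.87 with 0 called, and Pi16 itself was at -0.87 ± 0.87. Metalloproteinases and their inhibitors (10 of 17, median -0.17) held 1 lower gene, Timp1 at -1.65 ± 0.96, a tissue inhibitor that also stands on the activated fibroblast list (8 of 20, median -0.56). Chemokines and cytokines (11 of 17) had a median of -0.77, with Cxcl12 as the 1 higher gene. Immediate early genes (22 of 25, median -0.10) held 1 higher gene, Klf2, a flow-responsive factor of endothelium (203 CPM in FB1, 84.9 in the other FB and 513 in EC). Antioxidant genes (14 of 18, median -0.20) held 2 lower genes, Gpx7 and Prdx5, and heat shock genes (13 of 14, median -0.13) held 1, the co-chaperone Bag3. Interferon response (12 of 22, median 0.10), MHC class I (6 of 13, 0.08), secretory pathway (16 of 19, -0.43), TGF-beta (8 of 15, -0.46) and actin genes (18 of 24, -0.34) held 0 in either direction. Fibroblast regulators (7 of 20, -0.44), growth factors (2 of 22, -0.89), Wnt modulators (1 of 9) and cell cycle genes (1 of 20, -0.43) also held 0. Postn was at -0.59 ± 1.41 and Meox1, a regulator of fibroblast activation, at -0.53 ± 1.69, with the sign split over mice. Cthrc1, Acta2 and Comp fell under the level filter, and Cthrc1 had 1 UMI in all FB1 cells.

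Among the 12 lowest genes were H6pd (-3.38), Por (-3.18), Rsl1d1 (-3.14), Mrpl36 (-3.13), Ift43 (-2.96), Hsd11b1 (-2.77), Tnfaip2 (-2.70), Snrnp70 (-2.65), Cfdp1 (-2.62), Jmjd1c (-2.61) and Csrp3 (-2.59). H6pd, which supplies the NADPH that Hsd11b1 uses, stood at 48.7, 40.1, 0, 7.55, 84.1 and 0 CPM in FB1, against 149, 107, 161, 65.4, 147 and 73.8 CPM in the other FB. Apart from Hsd11b1 the genes listed here were sparse: averaged over the 6 mice they held 30.1 to 84.3 CPM in FB1, and SDs of the ratio ran from 1.81 to 3.59. FB1 sums held fewer UMIs than those of the other FB, and the part of this in the lower genes was not tested. Of the 86 lower genes, 23 (26.7%) were also lower in EC than in the other FB by at least 1 on the log2 scale, against 12.8% of the measured genes. These ratios too shared the sums of the other FB, so a high value there lowered both.

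Some list sums were highest in the same mouse in FB1 and in the other FB, and others were not. Summed chemokine and cytokine genes were 5020, 4810, 4720, 30100, 10000 and 1990 CPM in FB1, against 4880, 11400, 9210, 25400, 8390 and 4210 CPM in the other FB. The highest value in each group was that of 5w replicate 1 and the lowest that of 11w replicate 1, while the FB1 sum was the lower one in 0w replicate 2, 2w replicate 2 and 11w replicate 1. Ccl2, the main chemokine for monocytes, reached 11700 CPM in FB1 and 8240 CPM in the other FB of 5w replicate 1. Interferon response genes summed to 22500 CPM in FB1 and 20700 CPM in the other FB of that mouse, and to 5010 to 7950 CPM in FB1 and 5400 to 8620 CPM in the other FB of the remaining 5. Fibrillar collagens were highest in 2w replicate 2, with 5520 CPM in FB1 and 6540 CPM in the other FB. The activated fibroblast list was highest in 2w replicate 2 and 11w replicate 1, with 3050 and 2610 CPM in FB1 and 4610 and 4770 CPM in the other FB, while the remaining 4 mice held at most 1280 CPM in FB1 and 1580 CPM in the other FB. Cilp, a matrix protein of that state, stood at 780 and 623 CPM in FB1 of these 2 mice and at 3.38 to 143 CPM in FB1 of the other 4. Elastic fibre genes were highest in the other FB of 2w replicate 2 and 11w replicate 1, with 5980 and 4120 CPM in FB1 and 14600 and 11000 CPM in the other FB, and the value of 11w replicate 1 was the lowest of the FB1 sums. Complement genes of 11w replicate 1 were lowest among FB1 sums and highest among the other FB, with 1690 CPM in FB1 and 7370 CPM in the other FB. On plate E, which held mice of 2 stages, chemokine genes summed to 10000 CPM in FB1 of 8w replicate 1 and 30100 CPM in FB1 of 5w replicate 1, with no replicate.

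The change of FB1 with stage was tested on the sums, with the mouse as replicate, in edgeR's quasi-likelihood test with 1 term per stage and Benjamini-Hochberg adjustment. The 2 late mice were set against the 3 early mice, and with 1 residual degree of freedom the fit rests on few samples. The contrast averaged the stages, so 2w replicate 2 alone weighed as much as the 2 mice at 0w together. Only 0w held 2 mice, so the residual degree of freedom came from that pair. The SE and p therefore carry no spread between late mice or between mice at 2w. Of 11497 genes, 8 (0.0696%) were higher late and 3 (0.0261%) lower late, and 760 had an unadjusted p under 0.05. The lists on matrix, activation, chemokines and endothelial markers held 0 called genes, and the immediate early list held 1, Fosl2. The median log2 change over all tested genes was -0.24. Contrasts of late or early mice with 5w were not run, because 1 mouse at 5w held 10 or more FB1 cells.

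Meg3, a long noncoding RNA, was higher late, with 244 and 571 CPM at 8w and 11w, against 10.4, 51.1 and 0 CPM in the 3 early mice (log2 change 7.79 ± 1.43 SE, adjusted p = 0.0212 in edgeR). Ifrd1, a transcriptional coregulator, was higher late, with 257 and 606 CPM late against 97.7, 98.9 and 21.1 CPM early (3.11 ± 0.63 SE, adjusted p = 0.0374 in edgeR). Neither gene's groups overlapped, but 2w replicate 2 lay lowest in each. Fosl2, an AP-1 factor, had 237 and 860 CPM late, against 274, 84.1 and 4.21 CPM early (4.02 ± 0.80 SE, adjusted p = 0.0374 in edgeR). Tnrc6a, a protein of the microRNA machinery, had 232 and 935 CPM late, against 215, 403 and 0 CPM early (6.45 ± 1.13 SE, adjusted p = 0.0143 in edgeR). Vapa, a membrane contact protein, had 320 and 571 CPM late, against 274, 191 and 4.21 CPM early (3.76 ± 0.78 SE, adjusted p = 0.0434 in edgeR). The late and early values overlapped for Fosl2 and Tnrc6a but not for Vapa, and the lowest value of each was that of 2w replicate 2. Without that mouse the log2 change was 3.71 for Meg3, 2.11 for Ifrd1, 1.43 for Fosl2, 0.70 for Tnrc6a and 0.98 for Vapa, and none of the 5 passed.

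Ppp1r12a, a subunit of myosin phosphatase, was lower late, with 32.1 and 0 CPM late against 250, 530 and 232 CPM early (-7.45 ± 1.52 SE, adjusted p = 0.0401 in edgeR). Plxdc2, a membrane receptor, was lower late, with 79.7 and 0 CPM late against 384, 297 and 185 CPM early (-6.54 ± 1.31 SE, adjusted p = 0.0374 in edgeR). Ubb, a ubiquitin gene, was lower late, with 9560 and 4580 CPM late against 16100, 17900 and 9360 CPM early (-0.93 ± 0.18 SE, adjusted p = 0.0289 in edgeR). The groups overlapped for Ubb and not for the other 2. Without 11w replicate 1, the lowest sum in each, the log2 change was -3.13 for Ppp1r12a, -1.56 for Plxdc2 and -0.31 for Ubb, and none of the 3 passed. The other 3 called genes, all higher late, were the predicted genes Gm26924, Gm13339 and Gm11407, named because few genes passed. In edgeR, 0 genes were called without 2w replicate 2 (909 at an unadjusted p under 0.05), 0 without 11w replicate 1 (800), 0 on plates whose totals equalled the authors' (680) and 0 in the fit by period with the replicate block (395). DESeq2 called 69 genes with all mice.

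**Figure D4:**
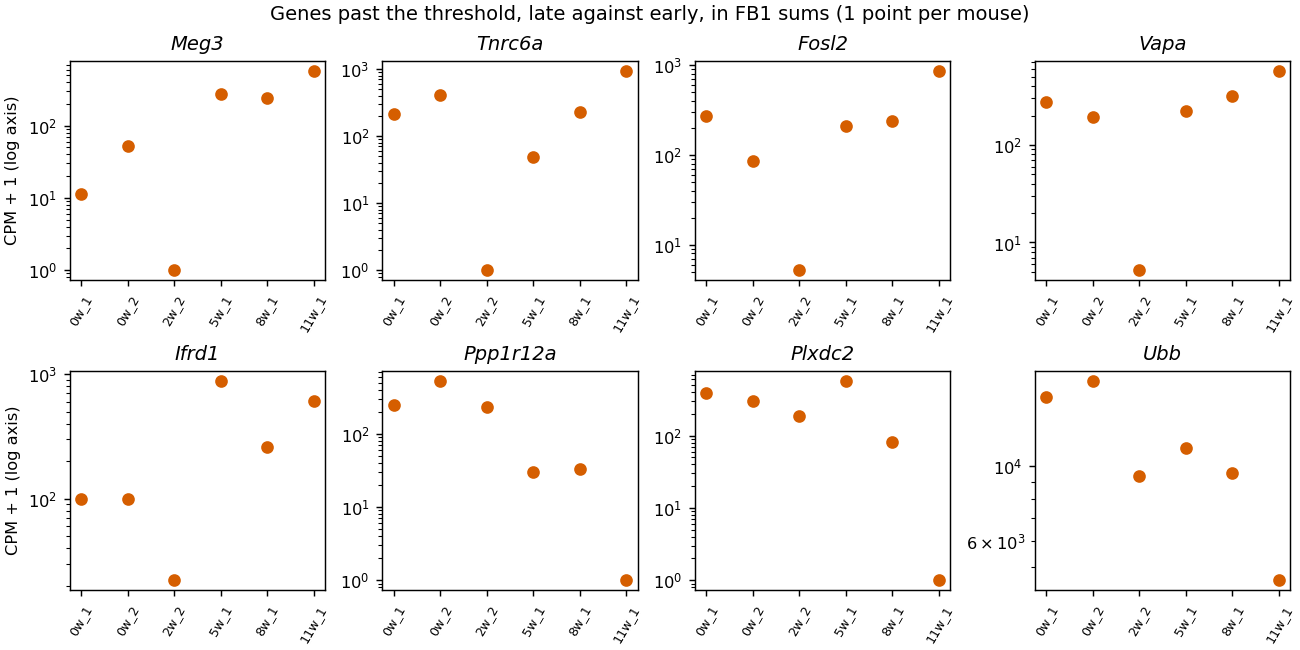
Level of the 8 named genes past the threshold in late against early FB1 sums, as TMM-scaled CPM plus 1 on log axes, with 1 point per mouse in order of stage (0w_1 is 0w replicate 1). Meg3, Tnrc6a, Fosl2, Vapa and Ifrd1 have their lowest point in 2w replicate 2, and Ppp1r12a, Plxdc2 and Ubb in 11w replicate 1.

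The genes that mark FB1 and the fibroblast genes did not pass the test by stage. Kdr changed by -0.22 ± 0.55 SE late against early (adjusted p = 1 in edgeR), with 339 and 329 CPM late against 475, 436 and 333 CPM early. Col1a1 changed by -0.87 ± 0.58 SE (adjusted p = 0.943 in edgeR) and Dcn by -0.54 ± 0.17 SE (adjusted p = 0.329 in edgeR), with 9920 CPM on average late and 15000 CPM early. Postn stood at -0.69 ± 0.78 SE (adjusted p = 1 in edgeR). Among lists, the smallest adjusted p of a gene that did not pass was that of Ccl2 and Tgfbr1, a TGF-beta receptor (0.0932 in edgeR for each). Il6 stood at 121 CPM on average late and 0.746 CPM early (adjusted p = 0.101 in edgeR). A p that misses the threshold does not show that a gene stayed level.

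Whether FB1 changed with stage in another way than the other FB of the same mice was tested as an interaction in edgeR, with the mouse as a block. Of 15474 genes, 3 (0.0194%) passed, all 3 with a larger late-minus-early difference in FB1, and 549 had an unadjusted p under 0.05. These were Gm26924 (log2 0.91 ± 0.08 SE, adjusted p = 1.72e-22 in edgeR), Gm13340 (1.18 ± 0.12 SE, adjusted p = 1.59e-17 in edgeR) and Gm13341 (1.05 ± 0.24 SE, adjusted p = 0.0493 in edgeR). The first is a predicted gene and the last 2 are pseudogenes in the GENCODE annotation, so reads shared with near-identical copies cannot be told apart. All 3 stayed in the totals behind CPM, so a high level of them lowers the CPM of every other gene in a sum. The part of this in the low fibroblast markers of FB1 in 11w replicate 1 was not tested. Gm13340 held 103000 CPM in FB1 of 11w replicate 1, against 45500 CPM in the other FB of that mouse, and 8070 to 43200 CPM in the other FB1 sums. In the 10 FB1 cells of that mouse on plate L alone it held 19300 CPM, against 11400 CPM in the other FB there. The high value of the whole FB1 sum thus came with its 3 cells on plate K, where nuclear totals did not equal the authors' UMI number. The interaction was not tested without plate K. In edgeR 0 genes passed without 11w replicate 1 (453 at an unadjusted p under 0.05), and none of the 24 lists held a gene that passed.

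FB1 made up a smaller part of the fibroblasts in most mice after 0w, but this did not pass the test. In the 12 mice with at least 10 FB cells, its share at 0w was 30.0% and 24.8%, at 2w it was 5.62% and 11.1%, and at 5w it was 12.8%, 3.45% and 2.33%. At 8w it was 21.2%, 0% and 0%, and at 11w it was 4.04% and 2.66%. The means by stage were 27.4% ± 3.66, 8.37% ± 3.88, 6.21% ± 5.78, 7.06% ± 12.2 and 3.35% ± 0.972 (SD, n = 2, 2, 3, 3 and 2). Both mice at 0w lay above all others, followed by 8w replicate 1. The zeros at 8w, of 87 and 65 FB cells, allow shares of up to 3.45% and 4.62%, taken as 3 counts of the total, and the two-sided exact 95% intervals drawn in the plot of shares reach 4.15% and 5.52%. Across the 5 stages the permutation test gave p = 0.0911, and p = 0.152 after adjustment over the 10 FB subclusters.

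Late mice averaged 5.57% ± 8.89 FB1 (SD, n = 5) and early mice 17.9% ± 11.4 (SD, n = 4), a difference of -12.3 percentage points. The two-sided exact permutation test gave p = 0.119 (0.595 after adjustment over 10 subclusters), where 126 splits allow no p under 0.00794. Without the 2 mice of plate E, which gave the high values at 5w and 8w, the test across stages gave an adjusted p of 0.0144, a choice made after the data were seen. Shares moved with the plates: FB1 was 29.54% of the FB on plate B, 8.13% on D, 16.06% on E, 2.778% on F, 2.469% on K, 3.837% on L and 0% on the other 6. The share of EC among non-cardiomyocyte cells was 55.7% and 38.7% at 0w, 43.0% in 8w replicate 1, and 14.9% and 21.6% in the 2 mice at 8w without FB1. Stage and plate cannot be told apart outside plate E, where the FB1 share was 21.2% in 8w replicate 1 and 12.8% in 5w replicate 1.

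**Figure D5:**
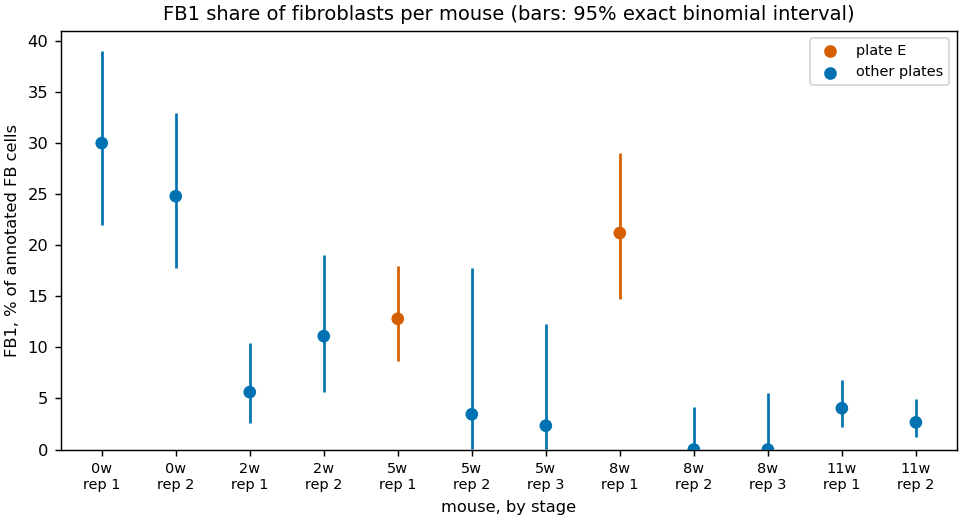
FB1 as percent of annotated fibroblasts in the 12 mice with at least 10 fibroblasts, by stage, with 95% exact binomial intervals as bars. Both 0w mice (30.0% and 24.8%) and 8w replicate 1 on plate E (21.2%) lie highest, and 8w replicates 2 and 3 lie at 0%.

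The annotation also gave each cell a label PI or API, which the labels do not explain. In FB1 the API share was 69.44%, 85.29%, 18.18%, 85.71%, 27.59% and 46.15% in the 6 mice. In the other FB it was 46.43%, 45.63%, 36.36%, 42.11%, 47.22% and 50.49%. FB1 thus varied more between mice in this label than the other FB did, with high shares at 0w and in 5w replicate 1 and low ones in 2w replicate 2 and 8w replicate 1. No test was made, since each stage but 0w is 1 mouse here.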

How the data were processed

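Single cells of mouse left ventricle were profiled by RNA sequencing in 16 mice. Per the labels' protocols, tissue was digested either to enrich myocytes or to enrich other cells. The authors deposited raw UMI counts, 1 whole number for each gene in each cell, and a cell annotation with mouse, type and subcluster. The submitters' processing notes list Subread 1.4.6-p1, featureCounts and STAR 2.5.2b as tools and GRCh37 and mm10 as builds. For the annotation, strand setting and UMI collapsing, nothing is stated in the labels. No columns of samples were left out (0).

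Counts of FB1 and of the other FB were summed per mouse (at least 10 cells), leaving out the 34 mitochondrially encoded genes. CPM in the description used the total of nuclear UMIs, and CPM in the stage tests were TMM-scaled. Stage contrasts were fitted with edgeR 4.0.16 in R 4.3.3 (filterByExpr, TMM, robust glmQLFit), and interactions with mouse as a block. The Benjamini-Hochberg adjustment ran over every gene in a fit, and 0.05 was the threshold. DESeq2 1.42.0 was an alternative. Shares used 100000 permutations or exact enumeration in Python 3.11.15 with scipy 1.17.1. The planned adjustment over 5 FB subclusters became 10, since the annotation holds 10. The fits were tested on simulated data. Replicates are mice by label, and 6 sums of 11 to 36 cells limit precision, with the deepest cell giving 11.48% to 34.17% of a sum's UMIs. No cells were filtered and doublets were not called.

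Plates, taken from cell names, are lettered A to L by stage, and on all but G, H and K nuclear totals equalled the authors' UMI number. No cell name occurred more than once (0).

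Named genes are the 12 highest and 12 lowest log2 ratios of FB1 over other FB (average log2 CPM of at least 5, same sign in at least 5 of 6 mice, no predicted or ribosomal genes), up to 6 called genes each way per stage contrast, members of the 24 gene lists with the smallest p, and a fixed set with Pdgfra, Col1a1, Dcn and Postn. Not all list members are printed, and some genes that the rule names are not reported here. The members and lists were chosen with earlier results of these data known. Replicate numbers name mice within a stage only.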

Additional observations from a re-analysis of the deposited data

Results flagged for a closer look

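The FB1 share of fibroblasts in 8w replicate 1 was 21.2%, against 0%, 0%, 4.04% and 2.66% in the other 4 late mice, and lay further from them than Dixon's 95% critical value for 5 samples allows (gap over range 0.809, critical value 0.71). Of the 2 groups examined, the 4 early mice held no such value, and chance marks about 1 in 20 groups. That mouse was the only late mouse on plate E.

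In 3 genes the late-minus-early difference in FB1 differed from that in the other FB of the same mice in edgeR's interaction test. The log2 difference was 1.18 for Gm13340, 1.05 for Gm13341 and 0.91 for Gm26924. In FB1 of 11w replicate 1 these genes held 103000, 22100 and 147000 CPM, against 45500, 11000 and 56600 CPM in the other FB of that mouse. The deepest cell gave 34.17% of that FB1 sum. Without its 3 cells on plate K, that is on plate L alone, Gm13340 held 19300 CPM in FB1 and 11400 CPM in the other FB. Gm26924 held 66900 and 48600 CPM there.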

How the results depend on the processing

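Counts of genes called late against early in FB1 (11) moved with most choices. They were 3 with RLE factors, 30 with no filter, 69 in DESeq2 (9 of the 11 shared), 22 with mitochondrial genes kept, 3 with at least 5 FB1 cells, 0 on plates with equal totals (680 genes at an unadjusted p under 0.05) and 1 without the 5% deepest cells. Leaving out 1 mouse gave 0 to 16 (0 without 2w replicate 2 and without 11w replicate 1, with 909 and 800 genes at an unadjusted p under 0.05). The replicate block left no residual degrees of freedom. Chosen after the data were seen, 1 term per period gave 2, the same with the replicate block 0 (395 genes at an unadjusted p under 0.05), at least 5 cells with the replicate block 7, thinned cells 4, and at least 5 cells without plate E 1. Whether the replicate numbers pair mice could not be checked, since the deviations of the 2 late mice are mirror images, and the labels name no pairing. Meg3 reversed to -0.63 with at least 5 cells and the replicate block, and the cause was not tested.

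The interaction (3 genes) gave 0 with no filter (654 genes at an unadjusted p under 0.05), 10 with mitochondrial genes kept, 0 with at least 5 cells (597), 1 with at least 20 cells, and 0 to 5 without 1 mouse (0 without either 0w mouse, 5w replicate 1 or 11w replicate 1). The share across stages had an adjusted p of 0.085 to 0.491 without 1 mouse and 0.0144 without plate E. The late-minus-early share stayed below 0 in every alternative run, at -16.4 to -8.28 without 1 mouse. Genes higher and lower in FB1 (49 and 86) numbered 89 and 205 without plate E and 63 to 78 and 105 to 143 without 1 mouse, where fewer mice must share a sign. Thinned cells kept 23 of the 49 and 16 of the 86 (of 42 and 66 called), and leaving out the 5% deepest cells kept 30 and 37 (of 44 and 72). Thinning thus lost more than it kept of both the higher and the lower genes. Leaving out the deepest cells did so for the lower genes only. The median log2 ratio was -0.17 without 11w replicate 1. Not run were the fits without a 0w mouse (no residual degrees of freedom), at least 20 FB1 cells (1 late mouse), plate as a term (not estimable) and both contrasts with 5w (1 mouse).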
